A study of Homo sapiens with 18 samples.

Results

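The comparison described here sets 3 libraries of unsorted (bulk) WM989 cells treated with EPZ5676 against 3 libraries of the low sort from cells given the same treatment, and asks what the treated culture holds beyond its low cells. These 6 libraries are chosen by their labels from 18 in the series. WM989 is an established human melanoma cell line, and EPZ5676 inhibits DOT1L, a histone H3 methyltransferase found at transcribed genes. Each of the 9 EPZ5676 libraries came from cells that had 4 µM of the compound for 7 days. The low and high groups were sorted for low or high levels of NGFR and EGFR, whereas bulk cells were not sorted. The other 9 libraries have the same 3 populations after DMSO, the solvent, for 7 days. Poly(A)-selected RNA was sequenced in pairs of reads. The labels number 3 replicates per group without saying that they came from separate cultures, so p-values measure only the spread between these samples, which may be technical. The sort gates and the share of the culture in each gate are not given in the sources used here, and all libraries come from 1 cell line.

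Cultures of this kind are known to hold a rare, reversible state in which melanoma cells carry high NGFR, EGFR, AXL and other receptors and survive targeted drugs more often than their neighbours. NGFR is the low-affinity nerve growth factor receptor, and EGFR is the epidermal growth factor receptor. Cells in that state are known to make extracellular matrix and to have less of the melanocyte programme, whose master transcription factor is MITF. A bulk culture contains cells of every level of NGFR and EGFR, so its RNA is a sum over them. In such sums, fewer cells of a type and less RNA per cell cannot be told apart. Low and high cells passed through the sort and bulk cells did not. An effect of sorting itself therefore cannot be told apart from a difference between bulk and low cells.

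The bulk libraries held 15234983, 26311674 and 13383741 gene counts and the low libraries 14153173, 23756040 and 20462703. Levels below are in CPM, read counts relative to each library's total after TMM scaling over all 18 libraries. In principal components of the 9 EPZ5676 libraries, the first held 70.94% of the variance. Bulk libraries lay on it between -28.57 and -24.62, low libraries between -49.73 and -48.27 and high libraries between 73.72 and 78.91. The bulk group was thus apart from the low group on the side of the high group, with no overlap. Reads on no annotated feature made up 22.68%, 13.75% and 28.65% of the reads of bulk replicates 1 to 3 and 23.93%, 14.40% and 13.40% of low replicates 1 to 3. The second component, with 10.84% of the variance, followed that share, and its part in the results was not tested beyond the fits given below. Melanocytic markers were present in both groups, with PMEL, MLANA, TYR, DCT, MITF and SOX10 all above 200 CPM in each library.

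The genes of the sort come first, as a check of the labels and not as a finding. NGFR (ENSG00000064300) stood at 35.6, 29.9 and 30.2 CPM in bulk and at 3.64, 6.86 and 1.05 CPM in low libraries, against a mean of 727 CPM in the EPZ5676 high sort. EGFR (ENSG00000146648) stood at 12, 12.7 and 11.2 CPM in bulk and at 4.28, 4.68 and 4.81 CPM in low libraries, against 62.5 CPM in high. Bulk libraries lay above all low libraries and far below the high sort for both genes. Transcript of DOT1L, the target of the compound, stood at 127, 121 and 127 CPM in bulk and at 121, 118 and 114 CPM in low libraries, and its difference did not pass the test (log2 fold change 0.09 ± 0.04 SE, adjusted p = 0.356).

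**Figure D1:**
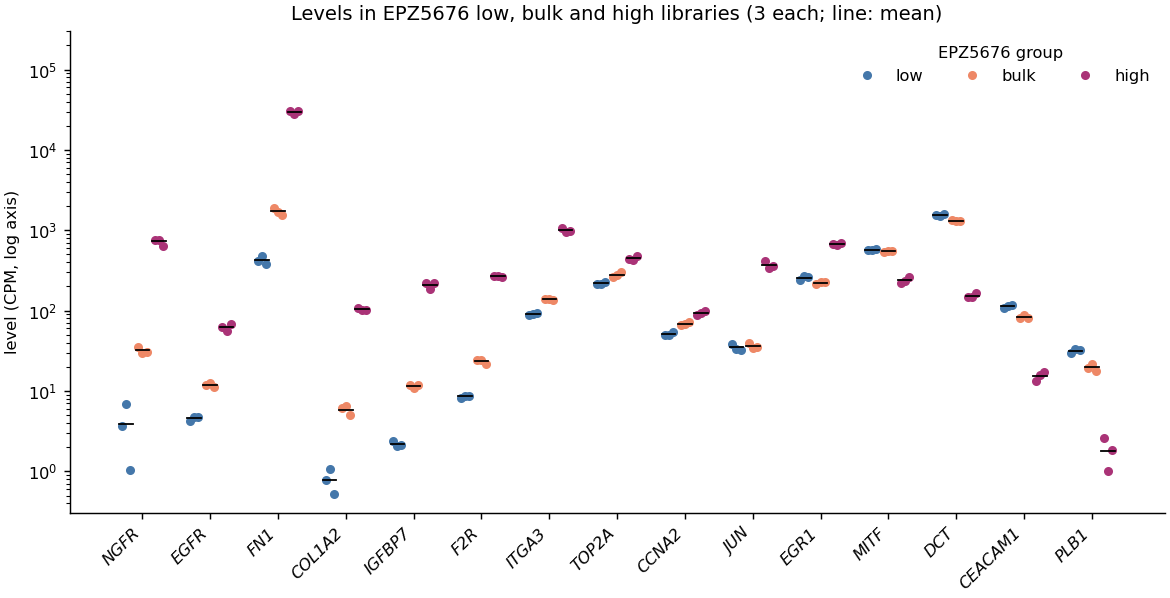
Levels in CPM on a log axis of 15 genes in each EPZ5676 library, with points for libraries and lines for the means of 3. For FN1, COL1A2, IGFBP7, F2R and ITGA3 the bulk points lie between low and high and nearer to low, JUN overlaps between bulk and low, and DCT, CEACAM1 and PLB1 are lower in bulk than in low.

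Of 17149 genes tested, 752 differed between bulk and low cells (4.39%), of which 583 were higher in bulk (3.4%) and 169 were lower (0.986%). The threshold was an adjusted p below 0.05 in edgeR's quasi-likelihood test, adjusted by Benjamini-Hochberg over all genes, and genes past it are said to be called. The larger changes were nearly all on the higher side: a change of 2-fold or more was seen in 125 genes that were higher (0.729%) and in 4 that were lower (0.0233%). The median log2 fold change was 0.37 among the genes called higher and -0.23 among those called lower. Without thresholds, the 3 bulk libraries all lay above the 3 low libraries for 1893 genes (11%) and all below for 1515 (8.83%). These calls rest on a spread estimated in the 9 EPZ5676 libraries. When all 18 libraries shared 1 spread, in which DMSO bulk replicate 1 stands apart from its group, 1 gene remained called higher (CCNA2) and 0 lower, and with the other 17 libraries 431 were higher and 65 lower. In the 4 EPZ5676 libraries with at most 16% of reads on no feature (bulk replicate 2, low replicates 2 and 3, high replicate 3), 364 were higher and 77 lower, with 1 bulk and 1 high library assumed to vary like the 2 low libraries.

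**Figure D2:**
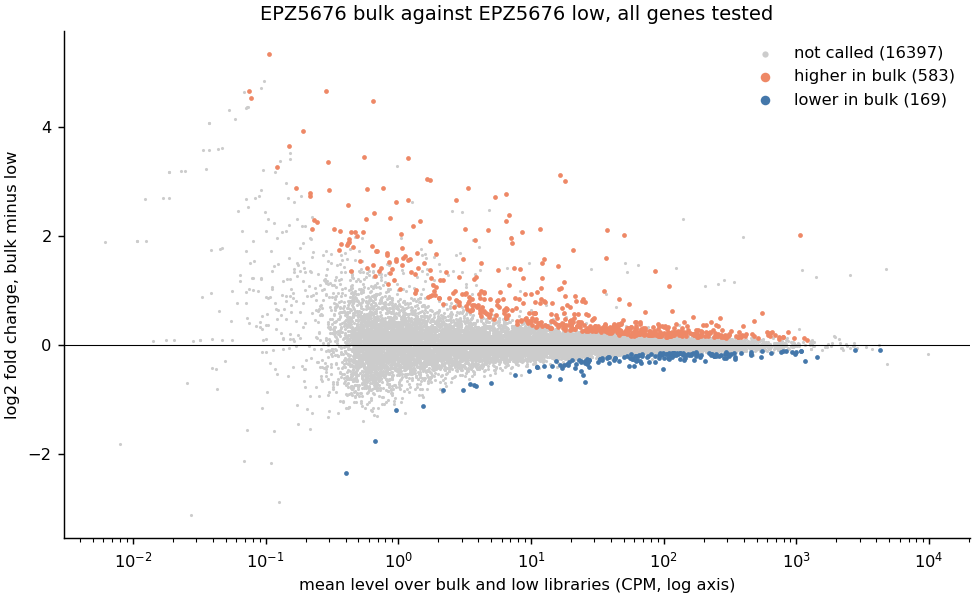
Log2 fold change of bulk minus low for each of the 17149 genes tested, against the mean level of the 6 libraries in CPM on a log axis. The 583 genes higher in bulk reach much larger changes than the 169 lower genes, and most genes of both groups change by less than 2-fold.

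Genes of the matrix led the list, and below "the 4 libraries" are those with few reads on no feature. FN1, which encodes the matrix protein fibronectin, stood at 1902, 1708 and 1532 CPM in bulk and at 410.5, 476 and 380.5 CPM in low libraries (log2 fold change 2.02 ± 0.11, adjusted p = 0.000197, or 0.582 in the 4 libraries). COL1A2, a chain of type I collagen, stood at 6.08, 6.45 and 5.09 CPM in bulk and at 0.771, 1.07 and 0.524 CPM in low libraries (2.88 ± 0.17, adjusted p = 2.53e-14). The rule that named both genes required each bulk library to be above each low library. The EPZ5676 high sort was far higher still, with COL1A2 at a mean of 104 CPM. COL1A1, the other chain of the same collagen, was higher in bulk by 2.13 ± 0.17. The collagenase MMP1 stood at 37.5, 23.1 and 28.7 CPM against 4.49, 4.76 and 1.10 CPM in low libraries (3.11 ± 0.44, adjusted p = 0.0128). MMP1 had the largest increase among named genes at 5 CPM or more in bulk with no overlap between the groups, and low replicate 3 was well below the other low libraries. It was called in 18 of 25 alternatives. The call was lost with all 18 libraries, without bulk replicate 3, in both fits of only the 6 libraries compared (adjusted p = 0.0569 without the covariate), in both fits with a replicate block and in the 4 libraries (adjusted p = 0.776). Its log2 change stayed between 2.67 and 3.53 under every alternative run.

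Of the 35 matrix genes listed, 30 were tested, 20 were higher in bulk, 0 were lower, and the median log2 fold change was 0.90, beside 0.002 over all genes tested. For this and every later list, the shares to set beside such counts are 3.4% higher and 0.986% lower over all genes tested. The proteoglycan BGN stood at 8.35, 11 and 8.61 CPM against 1.12, 1.68 and 1.43 CPM in low libraries (2.71 ± 0.21, adjusted p = 3.31e-05). TNC, the adhesion-modulating glycoprotein tenascin C, stood at 159.5, 136 and 153 CPM against 65.9, 71.4 and 75.6 CPM (1.07 ± 0.09, adjusted p = 0.000422). The members differed widely in size, from BGN and COL1A2 down to TIMP3, a metalloproteinase inhibitor, at 0.24 ± 0.03 and SPARC at 0.13 ± 0.03, and 10 of the 30 were not called. LOX, a collagen cross-linking enzyme, stood at 0.518, 0.484 and 0.449 CPM in bulk and at 0.771, 0.698 and 0.286 CPM in low libraries, which overlap. The count of matrix genes higher in bulk was 15 in the 4 libraries, and 15 to 21 when each library was left out in turn.

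Collagens and PDGF receptors also mark fibroblasts, so the markers of other cell types were read beside this group. Of 10 fibroblast markers 8 were tested and 5 were higher in bulk (COL1A1, COL1A2, FAP, PDGFRA and S100A4), with summed levels of 121.1 to 123.8 CPM in bulk, 100 to 102.1 CPM in low and 645.9 to 788.4 CPM in high libraries. Most of the sum in bulk and low came from LUM, at 84.0, 85.1 and 85.8 CPM in bulk and 88.8, 88.3 and 90.5 CPM in low. COL3A1, a fibrillar collagen chain, was at 0 in the 3 low libraries, at 0.0647, 0 and 0.15 CPM in bulk and at a mean of 1.75 CPM in high, and was not called (adjusted p = 0.367). THY1 and PDPN did not pass the filter on low counts, with at most 0.194 CPM in any bulk or low library. What part cells of another type have in the matrix result was not tested. Of 12 keratinocyte, 14 leukocyte and 9 endothelial markers, 3, 4 and 4 were tested and 0 were called by edgeR or DESeq2, with 0 at an unadjusted p below 0.05. Their summed levels were 31.23 to 35.29, 4.79 to 6.04 and 34.67 to 40.18 CPM in bulk and 26.54 to 34.97, 4.56 to 6.69 and 35.35 to 37.35 CPM in low libraries, so the groups overlapped in all 3 lists.

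Receptors, ligands and adhesion molecules followed the matrix genes. F2R, the thrombin receptor PAR1, had the smallest p of all genes tested, and it is named for that after its values were seen. It stood at 24.3, 24.3 and 21.7 CPM in bulk and at 8.27, 8.79 and 8.72 CPM in low libraries (1.45 ± 0.06, adjusted p = 1.07e-18), against a mean of 268 CPM in high. PTPRF, a receptor-type tyrosine phosphatase, was also picked for a small p after its values were seen, though not as the next smallest. It stood at 57.7, 55.3 and 52.7 CPM against 16.5, 19.0 and 19.1 CPM (1.59 ± 0.06, adjusted p = 2.10e-14). For both genes the replicates within a group lay within a few CPM of each other. The groups were far apart, and a choice by p favours both of these features. Of 46 receptor tyrosine kinases and ligands 37 were tested, 11 were higher and 0 lower, with a median of 0.38. PDGFRB, a receptor for platelet-derived growth factor, stood at 6.47, 4.51 and 4.79 CPM against 1.96, 2.42 and 2.19 CPM in low libraries (1.21 ± 0.17, adjusted p = 5.03e-05). FGF1, a fibroblast growth factor, was higher by 0.80 ± 0.12 and DDR2, a collagen-binding receptor kinase, by 0.34 ± 0.04. ERBB3 and MET, other receptor kinases of melanoma cells, were among the 26 members that were not called.

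Integrins, the receptors that tie cells to matrix, had 8 of 16 members higher (50%, beside 3.4% of all genes) and 0 lower. Their median was 0.17, and 5 were higher without low replicate 1. ITGA3, a subunit of a laminin receptor, stood at 140.5, 141 and 137 CPM in bulk and at 88.2, 90.5 and 92.6 CPM in low libraries (0.63 ± 0.04, adjusted p = 6.77e-14). The collagen receptor subunit ITGA1 was higher by 0.94 ± 0.14, and ITGB5 and ITGB3, subunits that pair with the alpha-v chain, by 0.32 ± 0.04 and 0.28 ± 0.05.

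Genes known to mark the rare resistant state had 10 of 17 members higher and 0 lower, with a median of 0.72, and this list was drawn up from knowledge of the same cell line. LOXL2, a collagen cross-linking enzyme, stood at 27.6, 27.6 and 29 CPM against 13.2, 14.2 and 17.4 CPM (0.90 ± 0.08, adjusted p = 3.09e-07). FOSL1, an AP-1 transcription factor, stood at 139.6, 141 and 143 CPM against 100.5, 111 and 113 CPM (0.38 ± 0.05, adjusted p = 4.25e-06). Both LOXL2 and FOSL1 had no overlap between groups, and the difference was several times larger than the spread within either group. AXL, a receptor kinase, stood at 6.34, 3.69 and 2.92 CPM in bulk and at 0.841, 1.07 and 0.381 CPM in low libraries without passing the test (2.46 ± 0.55, adjusted p = 0.0742). NT5E, a surface ectonucleotidase, stood at 45.5, 44.4 and 40.0 CPM against 41.8, 36.6 and 38.1 CPM, which overlap (0.17 ± 0.05, adjusted p = 0.0684). VGF, a neuropeptide precursor and the most abundant member, stood at 4086, 4699 and 3875 CPM against 5336, 5828 and 5020.0 CPM (-0.35 ± 0.09, adjusted p = 0.121, but called lower by DESeq2).

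Of 23 genes of the TGF-beta response 10 were higher and 0 lower (median 0.28; 6 higher without bulk replicate 1), among them SMAD7, the pathway's feedback inhibitor, at 13.3, 12.4 and 12.7 CPM against 9.46, 8.21 and 8.34 CPM (0.57 ± 0.09, adjusted p = 7.46e-05). YAP/TEAD targets had 7 of 23 tested members higher and 0 lower, at a median of 0.22. CCN2, a matricellular protein of both lists, stood at 50.1, 50.0 and 45.5 CPM against 37.3, 41.1 and 37.9 CPM (0.32 ± 0.05, adjusted p = 0.000126). Of 21 genes of MAPK output 4 were higher and 1 was lower (median 0.03); CCND1, a cyclin of the G1 phase, was higher by 0.44 ± 0.04. Of 24 undifferentiated-state genes 22 were tested, 9 were higher and 0 lower (median 0.32). EGFR, a gene of the sort, is 1 of the 9, and its call is no finding. The hyaluronan receptor CD44 was higher by 0.27 ± 0.03 and TWIST1, a mesenchymal transcription factor, by 0.32 ± 0.05.

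**Figure D3:**
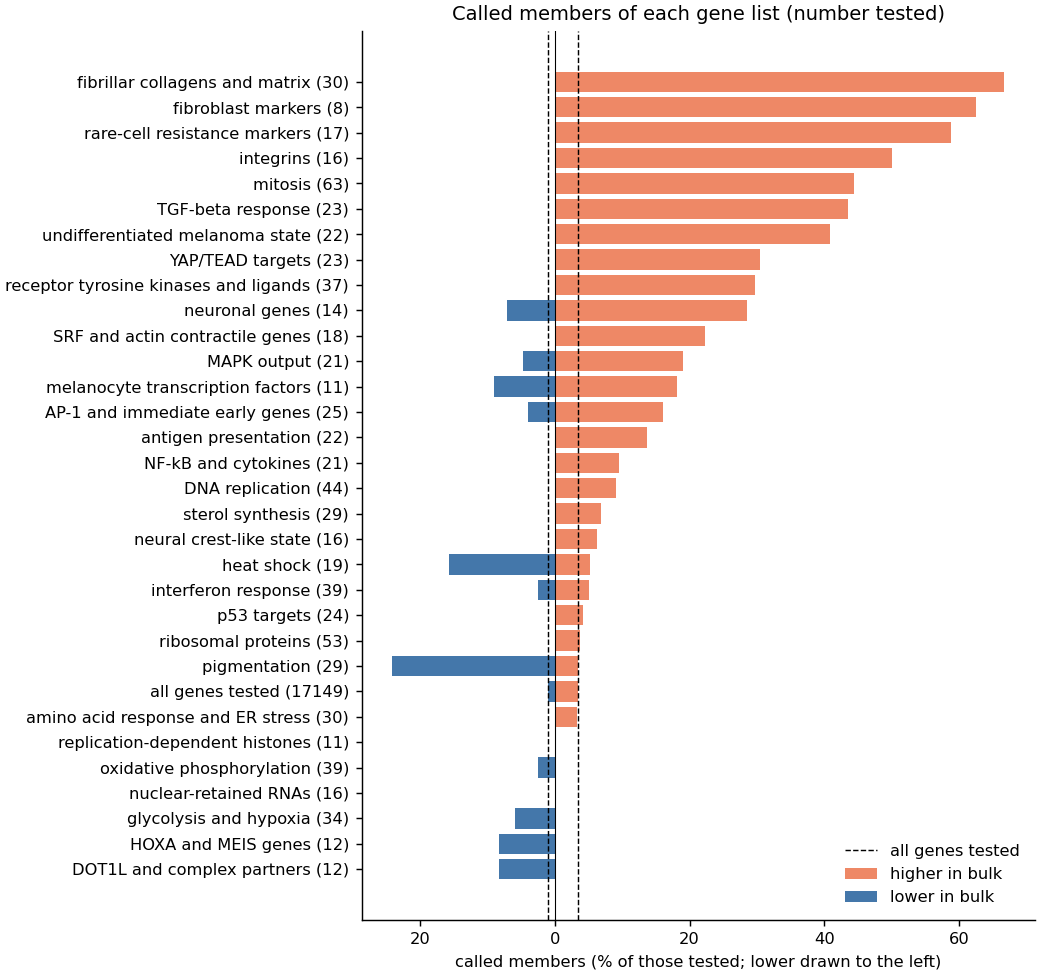
Share of the tested members of each list, in percent, that was called higher in bulk (to the right) or lower (to the left), with the number tested in parentheses and dashed lines for all genes tested. Matrix, resistance, integrin and mitosis genes reach shares of 44% to 67% on the right, and pigmentation has 24% of its members on the left.

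AP-1 and immediate early genes, transcription factors that answer to growth signals within minutes, had 4 of 25 members higher (16%, beside 3.4% of all genes) and 1 lower (4%, beside 0.986%). The higher count was 1 with 17 libraries in the spread. Their median log2 fold change was 0.02, while that in EPZ5676 high against low cells was 1.54. JUN stood at 39.3, 34.6 and 35.6 CPM in bulk and at 38.7, 32.9 and 32.8 CPM in low libraries (0.07 ± 0.10, adjusted p = 0.830), against a mean of 374 CPM in high. FOS stood at 348, 276 and 291 CPM against 348, 279 and 285 CPM (0.00 ± 0.13, adjusted p = 0.994), with a mean of 1049 CPM in high. The bulk and low libraries overlapped for both genes, and replicate 1 was the highest library of each group. EGR1, a zinc-finger immediate early factor, stood at 212, 226 and 228 CPM in bulk and at 240.3, 267 and 259.8 CPM in low libraries. It was lower in bulk (-0.21 ± 0.04, adjusted p = 0.000925), although its mean in high was 673 CPM. The EGR1 call was kept in 23 of 25 alternatives. It was lost in edgeR's test with 17 libraries (adjusted p = 0.621) and with all 18 (adjusted p = 0.959). KLF4 (0.67 ± 0.12), IER3 (0.28 ± 0.04), NR4A2 (0.34) and FOSL1 were the 4 higher members.

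Of 29 pigmentation genes 7 were lower in bulk, 1 was higher and 21 were not called, with a median of -0.09 (4 lower without bulk replicate 3). The melanin-forming enzyme DCT stood at 1331, 1313 and 1312 CPM in bulk and at 1540.0, 1500.0 and 1576 CPM in low libraries (-0.22 ± 0.04, adjusted p = 8.27e-05), against 153 CPM in high. TSPAN10, a tetraspanin of pigment cells, stood at 187, 185 and 182 CPM against 232, 217 and 227 CPM (-0.29 ± 0.04, adjusted p = 1.65e-05). Neither gene overlapped between groups, and each remained called when any 1 library was left out. MLPH, an adaptor for melanosome transport, was lower by 0.28 on the log2 scale (-0.28 ± 0.04), with 175 CPM in high cells against 149 to 155 CPM in bulk and 178 to 189.6 CPM in low libraries. The 1 member that was higher is GPNMB, a melanosomal glycoprotein, at 774, 779 and 768 CPM against 698, 693 and 719 CPM (0.14 ± 0.04, adjusted p = 0.0169). The count of higher members was 0 with 17 or 18 libraries, with library size scaling, without a filter and in the non-robust fit. It was 0 to 1 when each library was left out in turn. PMEL, the melanosome fibril protein, did not pass (-0.17 ± 0.05, adjusted p = 0.130), and MLANA (0.00 ± 0.05) and TYR (0.03 ± 0.05) overlapped between groups. The master factor MITF stood at 543, 559 and 547 CPM against 571, 569 and 585 CPM (-0.07 ± 0.04, adjusted p = 0.531). SOX10 stood at 794, 794 and 790.2 CPM against 800.2, 788 and 828 CPM (-0.02 ± 0.04). Of 11 tested melanocyte transcription factors, LEF1 and TBX2 were higher by 0.22 ± 0.04 and 0.23 ± 0.05, and POU3F1 was lower by 0.28 on the log2 scale (called in 6 of 9 omissions).

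The largest decreases among named genes at 5 CPM or more in low cells lay outside the pigmentation list. CDH3, the adhesion molecule P-cadherin, stood at 3.56, 4.21 and 3.60 CPM in bulk and at 5.68, 6.57 and 6.38 CPM in low libraries (-0.70 ± 0.18, adjusted p = 0.0173). It was not called without bulk replicates 1 or 3 or low replicates 2 or 3, nor with all 18 libraries (adjusted p = 0.414) or in the 4 libraries (adjusted p = 0.198). PLB1, a phospholipase, stood at 19.5, 21.7 and 17.9 CPM against 29.5, 33.1 and 32.4 CPM (-0.68 ± 0.11, adjusted p = 0.000271), with a mean of 1.81 CPM in high. CEACAM1, a cell adhesion molecule of the immunoglobulin family, stood at 79.9, 88.6 and 82.2 CPM against 108, 114 and 119 CPM (-0.44 ± 0.06, adjusted p = 2.39e-05). The rule that named these 3 genes required no overlap between the groups, so its absence is no finding. LSR (-0.62 ± 0.11), SYT7, a synaptotagmin (-0.57 ± 0.12), the long noncoding RNA LINC00698 (-0.56 ± 0.08) and FBLN5, a matrix protein of elastic fibres (-0.47 ± 0.08), were of like size.

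Genes of mitosis formed a large group of small increases. Of 63 genes tested 28 were higher and 0 lower, the median log2 fold change was 0.17, and 61 of the 63 estimates were above 0. CCNA2, the cyclin that drives cells through S phase into mitosis, stood at 66.9, 68.1 and 72.5 CPM in bulk and at 50.1, 49.5 and 54.5 CPM in low libraries (0.43 ± 0.05, adjusted p = 8.92e-07), with a mean of 93.6 CPM in high. TOP2A, the topoisomerase that untangles chromosomes, stood at 262, 279 and 299 CPM against 214, 216 and 228 CPM (0.35 ± 0.05, adjusted p = 4.50e-06). HJURP, the chaperone that loads the centromeric histone, stood at 104, 99.1 and 103 CPM against 74.6, 80.9 and 80.6 CPM (0.37 ± 0.04, adjusted p = 3.44e-07). For each of these genes all bulk libraries were above all low libraries and below the mean of the high sort. CDK1, the mitotic kinase, was higher by 0.34 ± 0.05 and MKI67, the proliferation marker, by 0.24 ± 0.05. CCNB1, the mitotic cyclin, stood at 124, 130.2 and 129.6 CPM against 128, 125 and 126 CPM, which overlap (0.02 ± 0.04, adjusted p = 0.923). DNA replication genes had 4 of 44 tested members higher (RRM2, TK1, GINS1 and FEN1) and 0 lower, with a median of 0.07. That count fell to 2 without bulk replicate 2 or 3 or low replicate 2 or 3, with 17 libraries, by limma-voom, in the fit that was not robust and in the 4 libraries, and to 0 with all 18 libraries. FEN1 was called in 1 and GINS1 in 4 of the 9 omissions. The mitosis count was 19 in the 4 libraries, 18 with 17 libraries in the spread, and 18 to 30 when each EPZ5676 library was left out, the lowest without low replicate 1.

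**Figure D4:**
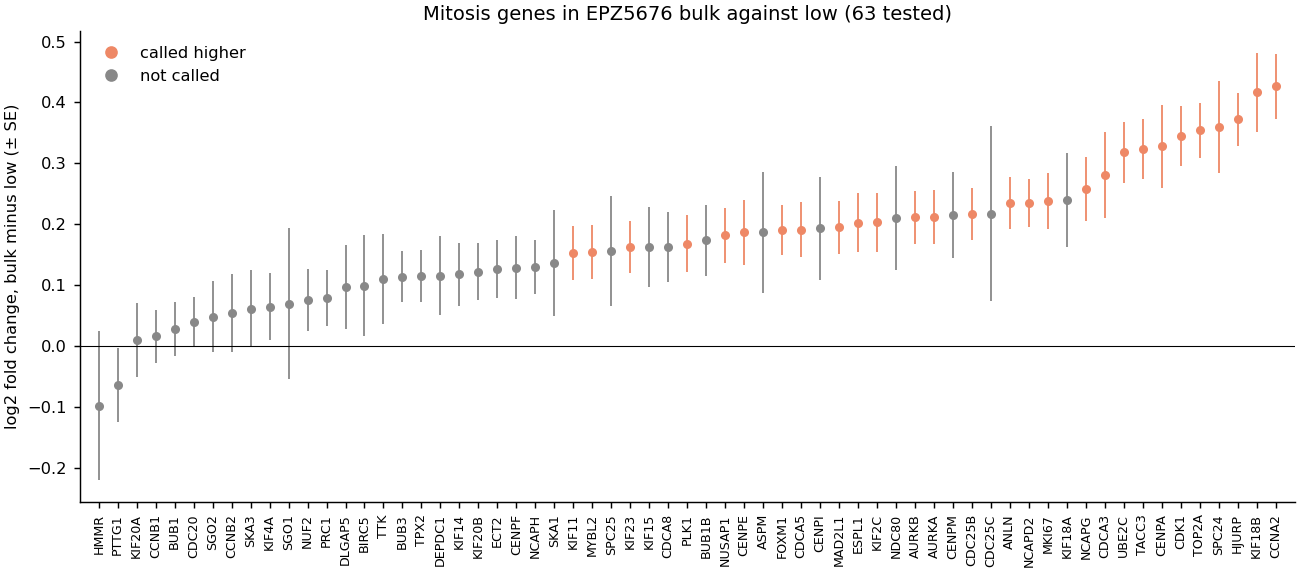
Log2 fold change of bulk minus low with its SE (bars) for the 63 mitosis genes, in order of size. The 28 called genes run from 0.15 to 0.43, and HMMR and PTTG1 are the only 2 estimates below 0.

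Since 28 members of this list were higher, promoters are shown for 3 of them, from RefSeq on GRCh38.p14, as the 250 bases before the start of transcription on the strand of the gene. Late cell cycle genes are known to carry a cell cycle genes homology region and CCAAT boxes, so capitals mark matches to TTTGAA and to CCAAT on either strand. No 2 matches overlap in these windows. The 3 genes were picked after values were seen. All 3 hold both kinds of match, which 10 of the 25 higher genes with a promoter did, so they do not stand for the list.
TOP2A, chr17:40417897-40418146, minus strand: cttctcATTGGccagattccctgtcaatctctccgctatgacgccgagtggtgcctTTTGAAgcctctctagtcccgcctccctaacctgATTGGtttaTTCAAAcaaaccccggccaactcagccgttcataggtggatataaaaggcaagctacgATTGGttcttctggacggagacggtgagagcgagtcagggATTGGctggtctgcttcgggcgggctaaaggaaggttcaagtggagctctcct
HJURP, chr2:233854536-233854785, minus strand: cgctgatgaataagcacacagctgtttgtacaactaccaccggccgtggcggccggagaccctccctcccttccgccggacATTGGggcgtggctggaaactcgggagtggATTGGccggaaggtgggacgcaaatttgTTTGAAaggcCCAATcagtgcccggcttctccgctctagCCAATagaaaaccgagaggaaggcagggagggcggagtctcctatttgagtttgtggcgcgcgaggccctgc
KIF23, chr15:69414099-69414348, plus strand: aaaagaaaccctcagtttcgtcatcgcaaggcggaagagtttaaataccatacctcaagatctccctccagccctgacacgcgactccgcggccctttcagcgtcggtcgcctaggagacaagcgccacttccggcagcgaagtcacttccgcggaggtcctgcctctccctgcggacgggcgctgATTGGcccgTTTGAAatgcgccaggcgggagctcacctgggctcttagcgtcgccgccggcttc
KIF23, a kinesin of the dividing cell's midzone, was higher by 0.16 ± 0.04 (adjusted p = 0.0185). A promoter was found for 25 of the 28 genes higher in bulk, of which 12 (48.0%) held TTTGAA, 18 (72.0%) CCAAT and 10 (40.0%) both. Among the 35 mitosis genes that were not called, 30 had a promoter, with 15 (50.0%) for TTTGAA, 23 (76.67%) for CCAAT and 13 (43.33%) for both. Over all 27305 genes with a promoter in the RefSeq table the shares were 16.05%, 37.0% and 5.79%. The letters were thus about as frequent in uncalled as in called members of the list, and a match is a description, not a bound site.

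Other lists held few called genes. Of 11 tested replication-dependent histones and 16 nuclear-retained RNAs, 0 were called by edgeR or DESeq2, and at an unadjusted p below 0.05 there were 0 histones and, of the nuclear RNAs, 1 higher and 1 lower. Heat shock proteins had 3 members lower (HSPD1, HSP90AA1 and HSPA4) and 1 higher (HSPB1) of 19 tested, all by at most 0.15. The 3 lower calls fell to 0 without bulk replicate 3 or low replicate 3 and to 1 without low replicate 2, and to 0 with 17 or 18 libraries, without a filter, with the share of reads on no feature as a covariate and in the 4 libraries. Oxidative phosphorylation had 1 of 39 lower (2.56%, beside 0.986% of all genes), and glycolysis and hypoxia 2 of 34 lower (5.88%). Ribosomal proteins had 2 of 53 higher (3.77%, beside 3.4% of all genes). The oxidative phosphorylation and glycolysis counts fell to 0 with 17 or 18 libraries and without a filter. They were also 0 with the share of reads on no feature as a covariate. With only the 6 libraries compared, the oxidative phosphorylation count was 4. At an unadjusted p below 0.05 in edgeR's test, 13 oxidative phosphorylation genes were lower and 0 higher. The share of all genes at that looser threshold is not given here, so this count is only a description. Of the 39 estimates 6 were above 0, with a median of -0.06. Among DOT1L and its partners 1 of 12 tested was lower, NPM1, at 618, 617 and 612 CPM against 683, 681 and 679.6 CPM (-0.15 ± 0.03, adjusted p = 0.00503). NPM1 kept its call in all 9 omissions of 1 library. The call was lost, among others, in edgeR's test with 17 libraries (adjusted p = 0.178), with all 18 and without a filter. Among HOXA and MEIS genes, known targets of DOT1L in leukaemia, 1 of 12 tested was lower, MEIS2 (-0.26 ± 0.08, adjusted p = 0.0437). MEIS2 was called in 12 of 25 alternatives and in 5 of 9 omissions of 1 library (not without bulk replicates 2 and 3 or low replicates 2 and 3), and its calls were lost, among others, by DESeq2 and limma-voom, with 17 or 18 libraries and in the 4 libraries. P53 targets had 1 of 24 higher, CDKN1A, a cell cycle inhibitor (0.65 ± 0.11, adjusted p = 0.000216). Interferon response genes had 2 of 39 higher, IFITM3 and IFI44, and IFI6 lower, the last called in 5 of 9 omissions.

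How far the bulk level lay from low towards high was measured as the bulk CPM minus the mean low CPM, in percent of the mean high minus the mean low CPM. This position is 0 at the low mean and 100 at the high mean. It is a place on the scale between these means, not a share of the culture's cells or RNA. It was read over 204 genes that were at least 8-fold higher in high than in low cells under DMSO, at 10 CPM or more, so that none of the EPZ5676 libraries chose them, and NGFR and EGFR were left out. The median position was 6.08%, 4.77% and 4.75% in bulk replicates 1 to 3 and -0.085%, 0.123% and -0.186% in low replicates 1 to 3. Each bulk library was therefore above each low library, with a mean of 5.20% ± 0.763 (SD, n = 3). Over the genes, the quartiles were 3.75% and 7.09%. Of the 204 genes 141 (69.12%) were called higher in bulk and 0 lower, against 3.4% higher over all genes tested.

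Single genes and groups spread around that value. FN1 stood at a position of 4.4%, COL1A2 at 4.91%, IGFBP7, a secreted growth factor binding protein, at 4.47%, and F2R at 5.72%. Among the 15 matrix genes in the marker set the median was 4.93%, from COL5A1 at 2.39% to TNC at 11.64%. Among the 10 resistance markers it was 5.18%, from JUN at 0.516% to IGFBP3 at 8.74%. Among the 5 AP-1 genes it was 2.49%, with 1 called higher, and among the 5 NF-kB and cytokine genes 2.75%, with 2 called. PTPRF was at 14.4%.

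Genes of the low side and of mitosis lay at other positions. For 42 genes at least 8-fold lower in high than in low cells under DMSO, a set chosen after seeing the values, the median position was 15.38%, 16.37% and 16.82% in bulk and 4.38%, -1.54% and -2.67% in low libraries. The bulk mean was 16.19% ± 0.741 (SD, n = 3). Of the 42 genes 16 were called lower and 0 higher, beside 0.986% and 3.4% of all genes tested. A set of 56 mitosis genes called higher in DMSO high cells was also chosen after seeing the values of bulk and low cells. Its median position was 19.02%, 26.36% and 29.46% in bulk and -5.42%, -7.31% and 10.48% in low libraries. That bulk mean was 24.94% ± 5.36 (SD, n = 3), and low replicate 3 lay well above the other low libraries. Bulk and low libraries overlapped in none of the 3 sets, and the 3 bulk means were 5.20%, 16.19% and 24.94%. The difference between the sets was not tested.

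**Figure D5:**
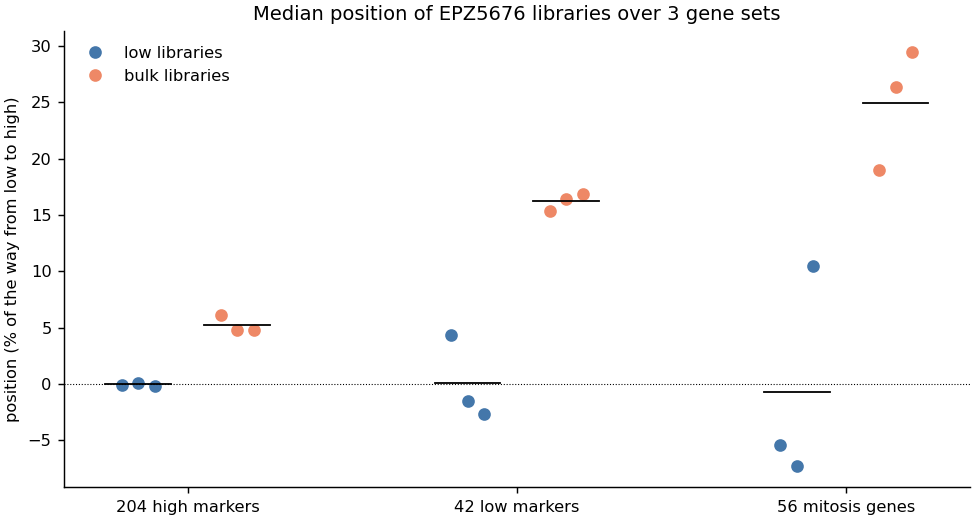
Median position of each EPZ5676 low and bulk library, in percent of the way from the low mean to the high mean, over 204 high markers, 42 low markers and 56 mitosis genes (points are libraries, lines are means of 3). Bulk points lie near 5% for high markers, near 16% for low markers and between 19% and 30% for mitosis genes.

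The genes of the comparison were then set against the sort under DMSO, whose 6 libraries take no part in it. There 4871 of 16784 genes were higher in high than in low cells (29%) and 4670 were lower (27.8%). Of the 583 genes higher in bulk, 581 were tested there too. Of these 533 (91.74%) were higher in DMSO high cells, 19 were lower and 29 were not called, whereas 28.85% of all 16507 genes tested in both were higher. The 533 genes are 11.19% of the 4762 genes higher in DMSO high cells. Of the 169 genes lower in bulk, 149 (88.17%) were lower in DMSO high cells, 4 were higher and 16 were not called, beside 28.21% lower among all genes. The 149 genes are 3.20% of the 4656 genes lower there. For 544 of the 583 genes the bulk mean lay below the mean of the EPZ5676 high libraries, and for 39 it was at or above it. For 153 of the 169 lower genes the bulk mean lay above the high mean, and for 16 it was at or below it.

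EPZ5676 high against low cells shares the low libraries with the bulk comparison, so only values are set side by side. There 5065 genes were higher (29.5%) and 4635 lower (27%). FN1 was higher by 6.14 ± 0.14 in high against low cells and by 2.02 ± 0.11 in bulk against low cells. For ITGA3 the pair was 3.48 ± 0.04 and 0.63 ± 0.04, for CCNA2 0.87 ± 0.05 and 0.43 ± 0.05, and for JUN 3.43 ± 0.10 and 0.07 ± 0.10. For DCT it was -3.33 ± 0.04 and -0.22 ± 0.04.

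Whether the difference of bulk and low cells is particular to the treated culture was tested as the EPZ5676 difference minus the DMSO difference. With 18 libraries 0 of 18121 genes passed by edgeR's quasi-likelihood test (0%), the smallest adjusted p was 0.989, and 571 had an unadjusted p below 0.05. Without DMSO bulk replicate 1, 0 of 18784 passed (0%), the smallest adjusted p was 0.320, and 575 had an unadjusted p below 0.05. DESeq2 and limma-voom also called 0. DMSO bulk against DMSO low had 175 genes higher (0.966%) and 22 lower (0.121%) with 18 libraries and 216 higher (1.15%) and 19 lower (0.101%) with 17. The smallest p in the 17 libraries belonged to PICART1, a long noncoding RNA at a mean of 0.239 CPM in EPZ5676 bulk. Among genes at 5 CPM or more in some group, it belonged to ERRFI1, a feedback inhibitor of EGFR, and then to ITGA3. ERRFI1 stood at 51.2, 46.7 and 44.4 CPM in EPZ5676 bulk and at 22.2, 26.5 and 23.0 CPM in EPZ5676 low cells, and its difference between treatments was 0.46 ± 0.10 (adjusted p = 0.332). For ITGA3 it was 0.32 ± 0.07 (adjusted p = 0.332), for FN1 0.37 ± 0.17, for CCNA2 0.15 ± 0.08 and for DCT -0.01 ± 0.07. On the 204 markers the position of DMSO bulk replicates 1 to 3 was 35.21%, 1.93% and 2.25%. DMSO bulk replicate 1 was thus above the EPZ5676 bulk libraries and the other 2 below them. These markers were chosen on the DMSO sorts, and the difference in position was not tested.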

How the data were processed

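The deposited table held raw counts per gene and library for 63677 Ensembl genes. The authors aligned reads with STAR to hg19 and counted them with HTSeq, per the submitters' processing notes; versions, annotation release and strand setting are not given in the sources used here, so overlapping and antisense genes may share reads. The 5 HTSeq summary lines per library stayed out of the tests. A current table gave names to 52181 genes and GENCODE 29 to 345 more; 11151, with 0.922% of counts, had no name. All 18 sample names matched, 0 library pairs were identical, and mitochondrial genes had 0 counts. Coordinates appear only for promoters, in the reference build.

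The 9 EPZ5676 libraries were fitted in R 4.3.3 with edgeR 4.0.16 (filterByExpr, TMM factors, robust quasi-likelihood), and p-values were adjusted by Benjamini-Hochberg over all genes tested at a threshold of 0.05. The DMSO sort was fitted on its own 6 libraries and the difference between treatments on 18 or 17. SE came from the F statistic. Members, the 35 lists and the rules were chosen with earlier results of these data known; 10 list genes matched no row. Named genes were NGFR, EGFR, DOT1L, the 15 largest called changes per direction (at least 5 CPM, no overlap), up to 4 members per list (2 where none was called) and the 5 most abundant markers; other genes were added after seeing values, and not all are described; 1 gene is not reported here. Alternatives were RLE or library size scaling, no filter or 5 CPM, DESeq2 1.42.0, limma-voom (3.58.1), non-robust fits, other sets of libraries, a replicate block, the share of reads on no feature, a prior count of 0.5, and omitting each library. Steps were tested on simulated data. Figures were drawn with matplotlib 3.10.9 in Python 3.11.15 from tables made with numpy 2.4.6 and pandas 2.3.3.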

Additional observations from a re-analysis of the deposited data

How the results depend on the processing

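Counts of called genes depended on which libraries set the spread and changed sign for no called gene under any alternative. Against 583 higher and 169 lower, all 18 libraries gave 1 and 0, 17 libraries 431 and 65, only the 6 libraries compared 592 and 255, and the 4 libraries with at most 16% of reads on no feature 364 and 77. Leaving out each EPZ5676 library in turn gave 396 to 663 higher and 70 to 208 lower. The lower count fell by more than 1.5 times without bulk replicate 3 (70), low replicate 1 (99), low replicate 2 (96) and low replicate 3 (94). Other scalings, filters, tools and the share of reads on no feature as a covariate gave 397 to 594 higher and 113 to 187 lower; the covariate in the 6 libraries alone, chosen after seeing the data, gave 473 and 161. Same-numbered bulk and low libraries had correlations of 0.194, 0.300 and -0.238, which do not settle whether the numbers pair the samples. The negative value sets bulk replicate 3, with 28.65% of reads on no feature, beside low replicate 3, with 13.40%. The main fit took the libraries as unpaired. With the replicate number as a block 703 genes were higher and 221 lower, and 709 and 182 with the share of reads on no feature as well. The difference between treatments had 0 called genes under every setting run except without a filter on low counts (2), where both genes had at most 6 counts in each EPZ5676 bulk and low library. The position of bulk was 4.82% to 5.89% under other settings and 4.76% to 5.43% without each library. Of 130 named genes that were called, 86 kept their call in every such omission, 94 with 17 libraries and 87 in the 4 libraries. NGFR was called in 13 of 25 alternatives and in 3 of 9 omissions (without low replicates 2 or 3 or high replicate 3); it was not called with all 18 libraries (adjusted p = 0.782), in the 4 libraries (0.821), in both fits of the 6 libraries (0.0713 without the covariate) or with a replicate block (0.0644 without the covariate). With 3 libraries a group, small changes of genes below a few CPM were not detectable.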

Other observations

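A small set of called genes did not follow the DMSO sort, by a rule chosen after seeing the values (called, at least 5 CPM, no overlap between bulk and low libraries, not called the same way in DMSO high cells). It held 45 genes higher and 14 lower in bulk. LGI3, a secreted protein of the LGI family, stood at 27.9, 35.1 and 29.7 CPM in bulk, at 24.7, 19.3 and 19.8 CPM in low and at a mean of 16.7 CPM in high libraries (log2 fold change of bulk minus low 0.57 ± 0.10, adjusted p = 0.00106). LEF1, a transcription factor of Wnt signalling, stood at 268, 256 and 259 CPM against 228, 227 and 219.9 CPM, and at 179 CPM in high. QDPR, which regenerates the cofactor of aromatic amino acid hydroxylases, stood at 132, 129 and 128 CPM against 111, 112 and 114 CPM, and at 83.7 CPM in high. For these 3 genes bulk was above both sorted groups. BCL2A1, an antiapoptotic target of MITF, stood at 24.6, 29 and 27.7 CPM against 18.8, 20.5 and 21.8 CPM (0.41 ± 0.08, adjusted p = 0.00109), with 23.8 CPM in high. RGS1, a regulator of G protein signalling, went the other way, at 17, 15.3 and 17.2 CPM against 20.9, 20.7 and 20.9 CPM, with 42.8 CPM in high (-0.35 ± 0.08, adjusted p = 0.00647). NPAS2, a clock transcription factor, stood at 98.6, 99.8 and 100.3 CPM against 117, 124 and 118 CPM (-0.26 ± 0.05, adjusted p = 0.000204). A level outside the range of both sorted groups was not tested as such, and it cannot be told apart from an effect of sorting.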
